A study of Mus musculus with 4 samples.

Results

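Lamp5 interneurons of the hippocampus, the class that holds neurogliaform and ivy cells, were picked from single-nucleus RNA sequencing of adult mice by their own counts. A nucleus was a member where its barcode held at least 5000 unique molecular identifiers (UMIs, tags that count RNA molecules), at least 3 UMIs of Gad1 and Gad2 together and at least 2 of Lamp5, with at most 1 each of Sst, Vip and Slc17a7. The rule found 190 members among 32572 nuclei, with 53 and 51 in Control against 41 and 45 in Kat6a-cKO. The 2 Control libraries came from Kat6a-f/f mice, whose Kat6a gene is flanked by loxP sites. The 2 Kat6a-cKO libraries came from mice that carry NEX-cre and Kat6a-f/f, so that the floxed alleles are shared by both groups and the Cre is not. NEX-cre places the recombinase at Neurod6, a locus of forebrain excitatory neurons, so the deletion is not directed to the neurons described here. The labels give no treatment, no exact age and no statement that each library is a separate animal. P-values between libraries therefore measure the spread between these samples, which may be technical. Where classes of nuclei were compared within each library, p-values measure how that difference spread over the libraries, which may be technical too. KAT6A is a histone acetyltransferase, and the title of the series ties its loss to RSPO2 and Wnt signals in CA3. The comparison of genotypes in these interneurons asks which genes differ between genotypes in neurons to which the deletion is not directed.

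Neurogliaform and ivy cells are inhibitory neurons with short, very dense axons. Single neurogliaform cells release GABA in a cloud that reaches receptors beyond classical synapses, and so give slow inhibition through both GABA-A and GABA-B receptors. Neurogliaform cells lie mainly in the stratum lacunosum-moleculare and ivy cells near the pyramidal layer. Ivy cells and part of the neurogliaform cells derive from the medial ganglionic eminence (MGE) and express Lhx6 and often Nos1 and Npy, while other neurogliaform cells derive from the caudal ganglionic eminence (CGE) and are known for Reln, Ndnf and the absence of Lhx6.

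The libraries held 171323466 to 186897245 counts and 7911 to 8442 nuclei with at least 5000 UMIs. Nuclei with at least 3 Gad1 and Gad2 UMIs and at most 1 Slc17a7 UMI, called GABA nuclei below, numbered 534 and 531 in Control against 666 and 571 in Kat6a-cKO. The sums over members, on which every level and test below rests, were 1031605 and 938814 counts in Control against 672174 and 762245 counts in Kat6a-cKO. Median UMI counts of members were 17086 and 17600 in Control against 15620 and 16291 in Kat6a-cKO, against 18953 to 20224 in excitatory nuclei (at least 3 Slc17a7 UMIs and no Gad1 or Gad2 UMI). Levels are given as CPM, a gene's share of the counts of a sum on the usual scale. They are not divided by gene length and compare libraries and classes for 1 gene, not genes with each other. Fewer cells of a type and fewer nuclei recovered from it cannot be told apart here. Library pairs shared 15 to 20 barcodes among these nuclei, and no member's barcode was shared. Scrublet called 0, 0, 1 and 4 members of Control 1, Control 2, Kat6a-cKO 1 and Kat6a-cKO 2 as doublets, and all were kept.

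The label was first checked against its markers. Lamp5, a lysosome-associated membrane protein of vesicles that gives the class its name, stood at 151 and 146 CPM in Control against 150.3 and 160.1 CPM in Kat6a-cKO in members, against 7.18 to 7.75 CPM over the other GABA nuclei, a difference that the rule itself made. Gad1, a GABA-synthesising enzyme, stood at 224 and 219 CPM in Control against 226 and 228 CPM in Kat6a-cKO, and Gad2, its second form, at 746 and 782 CPM in Control against 983 and 771 CPM in Kat6a-cKO. Reln, the secreted glycoprotein reelin that is given as a marker of the class, was not part of the rule. It stood at 353 and 497 CPM in Control against 1125 and 531 CPM in Kat6a-cKO. Kat6a-cKO 1 was the highest of the 4 and Control 1 the lowest, and both Kat6a-cKO values lay above both Control values. The share of members with at least 1 Reln UMI was 45.3% and 49% in Control against 70.7% and 46.7% in Kat6a-cKO, and 4.05 to 6.56% of excitatory nuclei, which should lack it, held a Reln UMI at a similar depth. After thinning each member to 5000 UMIs the Reln shares were 36.6% and 41.9% in Control against 59.7% and 40.0% in Kat6a-cKO. Members therefore held Reln above the background of excitatory nuclei in all 4 libraries, but in 3 of 4 libraries fewer than 50% of them did.

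**Figure D1:**
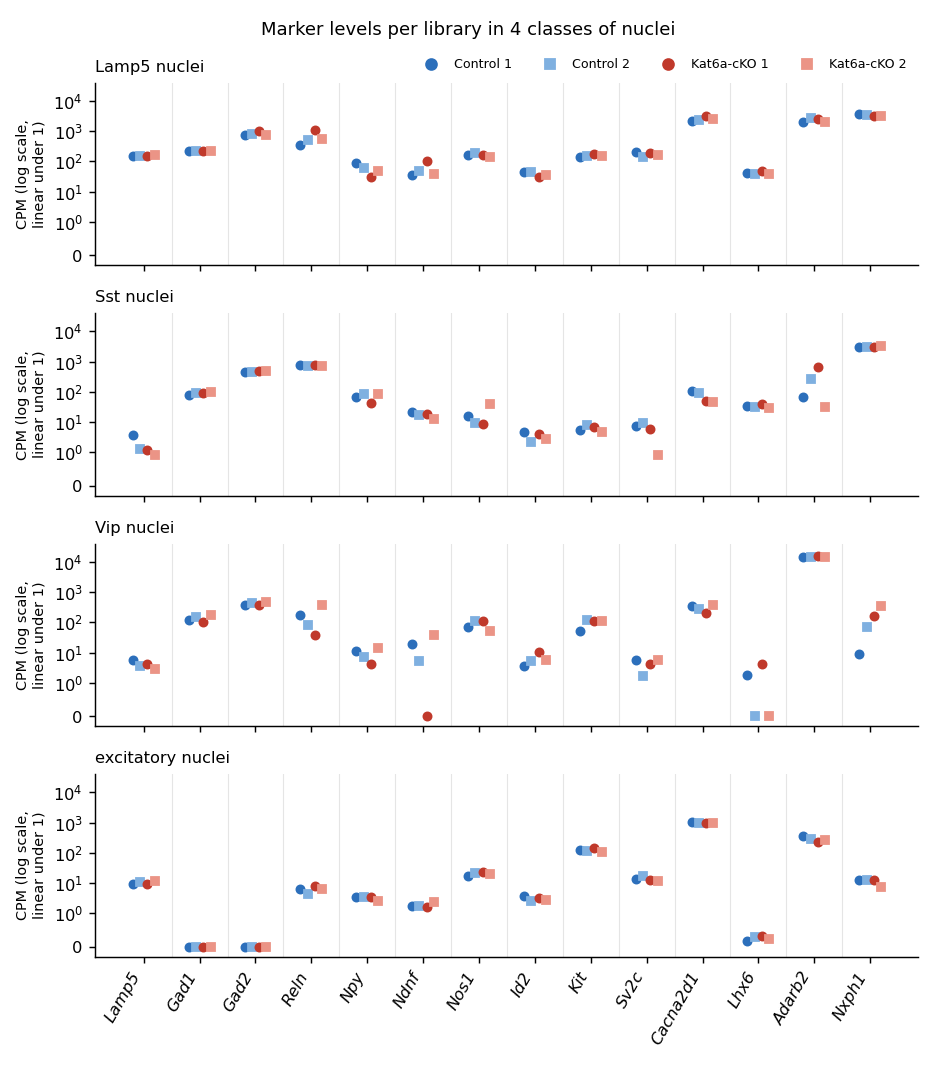
Levels in CPM (log axis, linear under 1) of 14 marker and lineage genes in members (top), Sst nuclei, Vip nuclei and excitatory nuclei, with 1 point for each library sum. Lamp5 and the Gad genes follow from the rule and the Gad genes are at 0 in excitatory nuclei by the definition of that class, while Nos1, Sv2c and Cacna2d1, which the rule did not use, stood higher in members than in Sst nuclei in all 4 libraries.

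Other markers of the class were present. Nos1, neuronal nitric oxide synthase, stood at 165 and 187 CPM in Control against 159 and 144 CPM in Kat6a-cKO, against 35.8 to 55 CPM over the other GABA nuclei. Npy, the peptide neuropeptide Y, stood at 86.3 and 60.7 CPM in Control against 29.8 and 49.9 CPM in Kat6a-cKO, with both Kat6a-cKO values below both Control values. Ndnf, a secreted protein that marks superficial neurogliaform cells, stood at 35.9 and 49 CPM in Control against 103 and 38 CPM in Kat6a-cKO, and Kat6a-cKO 1 stood apart from the other libraries. Id2, an inhibitor of helix-loop-helix factors, stood at 43.6 and 45.8 CPM in Control against 31.2 and 36.7 CPM in Kat6a-cKO. Cacna2d1, an auxiliary subunit of voltage-gated calcium channels, stood at 2223 and 2399 CPM in Control against 3124 and 2578 CPM in Kat6a-cKO, with Kat6a-cKO 1 the highest. Of the 13 genes of the marker list, 12 passed the filter on low counts for the comparison of genotypes.

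Among members the Lamp5 count was low per nucleus. It was exactly 2, just inside the threshold, in 25 and 29 in Control against 28 and 20 in Kat6a-cKO, and the highest count in any member was 10. Nuclei that met every other condition but held 1 Lamp5 UMI, just outside, numbered 51 and 59 in Control against 67 and 58 in Kat6a-cKO. The members with 2 Lamp5 UMIs held Sv2c, a synaptic vesicle protein, at 149 to 209 CPM and Cacna2d1 at 1913 to 3052 CPM. The nuclei with 1 Lamp5 UMI held Sv2c at 103 to 118 CPM and Cacna2d1 at 1968 to 2213 CPM, and the other GABA nuclei, which include them, held 24 to 34.7 and 539 to 590.5 CPM. Nuclei just outside the threshold thus lay above the other GABA nuclei in both genes, below the members with 2 Lamp5 UMIs in Sv2c and within their range in Cacna2d1.

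Markers of other cell types were summed over their whole lists. The parvalbumin interneuron markers (Pvalb, Tac1, Kcnc1, Kcnc2, Cntnap4 and Erbb4) summed to 11666 and 12897 CPM in Control against 12710 and 13061 CPM in Kat6a-cKO in members, above the 9696 to 10488 CPM of the other GABA nuclei. Erbb4 alone gave 9732 to 11509 CPM of these sums, while Pvalb itself stood at 1.31 to 6.79 CPM in members and 20.4 to 24.6 CPM in the other GABA nuclei. The Sst interneuron markers, a list that holds Reln and Npy and of which the rule limits Sst, summed to 628 and 684 CPM in Control against 1346 and 687 CPM in Kat6a-cKO in members and 982 to 1062 CPM in the other GABA nuclei, and Kat6a-cKO 1 was the highest of the member sums. The Vip interneuron markers (Vip, Calb2, Crh, Htr3a, Penk and Tac2) summed to 2.91 and 1.07 CPM in Control against 4.46 and 2.62 CPM in Kat6a-cKO in members and 43 to 64.1 CPM in the other GABA nuclei, and Htr3a and Tac2 were at 0 in all 4 member sums. The rule limits Vip in members, so the low sum is in part fixed by the rule. The Cck interneuron markers summed to 142 and 200.3 CPM in Control against 193 and 259.8 CPM in Kat6a-cKO, which includes Cnr1, the cannabinoid receptor, at 77.5 to 171 CPM, and Slc17a8, the vesicular glutamate transporter of many Cck interneurons, was at 0 in all 4. The excitatory neuron markers summed to 223 and 310.0 CPM in Control against 220.2 and 295 CPM in Kat6a-cKO, against 281 to 317 CPM in the other GABA nuclei. Oligodendrocyte markers summed to 70.8 and 118 CPM in Control against 96.7 and 202 CPM in Kat6a-cKO, astrocyte markers to 53.3 and 40.5 CPM in Control against 28.3 and 28.9 CPM in Kat6a-cKO and microglia markers to 127 and 147 CPM in Control against 149 and 102 CPM in Kat6a-cKO. The OPC markers, of oligodendrocyte precursors, summed to 142 to 217 CPM in members and 50.5 to 60.7 CPM in the other GABA nuclei, and the endothelial and mural markers to 1.49 to 7.46 CPM in members. Kat6a-cKO 2 was the highest in oligodendrocyte markers, and both Control sums were the highest in astrocyte markers. The Cajal-Retzius markers, a list that also holds Reln and Ndnf, summed to 391 and 546 CPM in Control against 1229 and 569 CPM in Kat6a-cKO. Of the defining genes of those cells, Lhx1, Lhx5 and Ebf3 were at 0 in all 4 sums, and Trp73 had 1 UMI in Control 1, 1 UMI in Kat6a-cKO 1 and none in the other two. The part of these levels in the genotype results below was not tested.

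The share of members among GABA nuclei was 9.93% and 9.6% in Control against 6.16% and 7.88% in Kat6a-cKO. The exact 95% binomial intervals were 7.52 to 12.8% and 7.23 to 12.4% in Control and 4.45 to 8.26% and 5.81 to 10.4% in Kat6a-cKO, and cover counting error only. Both Kat6a-cKO shares lay below both Control shares, with means of 7.02% ± 1.22 (SD, n = 2) and 9.76% ± 0.227, and the exact permutation test over libraries gave its smallest possible two-sided p, 0.33. Among all nuclei the share of members was 0.642% and 0.641% in Control against 0.486% and 0.569% in Kat6a-cKO (exact permutation p = 0.33). The share of GABA nuclei as a whole was 6.47% and 6.67% in Control against 7.89% and 7.22% in Kat6a-cKO, and both Kat6a-cKO values lay above both Control values. These shares rest on UMI thresholds and were not thinned for depth. With at least 3 Lamp5 UMIs the share of members among GABA nuclei was 5.24% and 4.14% in Control against 1.95% and 4.38% in Kat6a-cKO, and the groups overlapped. Nuclei just outside the Lamp5 threshold were not fewer in Kat6a-cKO, with 51 and 59 in Control against 67 and 58 in Kat6a-cKO. Median UMI counts of the other GABA nuclei were 16679 and 17353 in Control against 15202 and 15984 in Kat6a-cKO. The part of depth in the share differences was not tested. With 2 libraries a group no share difference can pass a threshold of 0.05.

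Members were next set against the other 2112 GABA nuclei of the same libraries. Lamp5, Gad1, Gad2, Sst, Vip and Slc17a7 chose the members and took no part in the calls. Of 12485 other genes, 775 were higher and 981 lower in members at an adjusted p under 0.05 by edgeR's quasi-likelihood test with each library as a block, 14.1% of those tested (6.21% higher, 7.86% lower). The same nuclei chose the classes, so these counts describe members and nothing is read from the percentage. Differences between these classes are log2 levels of members over other GABA nuclei, with their standard error (SE).

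The 15 genes that were higher by the most, among those with at least 50 CPM in members, included receptors, vesicle and matrix genes. Prlr, the prolactin receptor, stood at 75.6 to 181 CPM over the 4 member sums and 14.4 to 26.3 CPM in the other GABA sums (log2 2.67 ± 0.19 SE). Sv2c stood at 138 to 199.7 CPM over the 4 member sums and 24 to 34.7 CPM in the other GABA sums (log2 2.66 ± 0.11 SE). Hapln1, a link protein that holds hyaluronan to proteoglycans in the matrix around neurons, stood at 210.4 to 312 CPM over the 4 member sums and 52.2 to 63.4 CPM in the other GABA sums (log2 2.23 ± 0.11 SE). Each of these was higher in members in 4 of 4 libraries, and the ranges did not overlap. Cacna2d1 stood at 2223 to 3124 CPM over the 4 member sums and 539 to 590.5 CPM in the other GABA sums (log2 2.23 ± 0.08 SE), and versican (Vcan), a matrix proteoglycan, at 142 to 214 CPM over the 4 member sums and 42 to 54.2 CPM in the other GABA sums (log2 1.99 ± 0.10 SE). Vcan is also listed as a marker of oligodendrocyte precursors, whose Olig1 was at 0 in all 4 member sums. Receptors for orexin (Hcrtr2, log2 2.17 ± 0.10 SE) and substance P (Tacr1, 2.13 ± 0.14) were higher as well, as were the phosphodiesterase Pde11a (2.29 ± 0.08), the syntrophin Sntb1 (2.30 ± 0.15), Vwa5a (2.26 ± 0.22), angiomotin (Amot, 2.18 ± 0.17), the cadherin Dchs2 (2.16 ± 0.10), the copine Cpne8 (2.12 ± 0.11), Mctp2 (2.09 ± 0.08) and the adhesion gene Kirrel (1.96 ± 0.14). The Hcrtr2 difference ranged from 0.59 to 4.07 over 13 alternatives and was called in each.

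Among the 10 genes that were lower by the most were Elfn1, Satb1 and Synpr. Elfn1, a postsynaptic protein that sets release at excitatory inputs onto Sst interneurons, stood at 2.98 to 10.7 CPM over the 4 member sums and 148 to 178 CPM in the other GABA sums (log2 -4.54 ± 0.18 SE). Satb1, a chromatin organiser needed by MGE interneurons as they mature, stood at 5.95 to 12.6 CPM over the 4 member sums and 215 to 239 CPM in the other GABA sums (log2 -4.42 ± 0.15 SE). Synpr, synaptoporin of synaptic vesicles, stood at 19.3 to 35.4 CPM over the 4 member sums and 456 to 569.8 CPM in the other GABA sums (log2 -4.01 ± 0.12 SE). In each case the members' highest sum lay below the lowest sum of the other GABA nuclei. The kinase gene Stk32a was near absent, at 0 to 1.07 CPM over the 4 member sums and 56.5 to 71 CPM in the other GABA sums (log2 -7.61 ± 0.39 SE). Lama3, a laminin chain, differed by -5.11 ± 0.30 SE, the cation channel gene Trpc6 by -3.63 ± 0.15, Ccbe1 by -3.45 ± 0.20, and the non-coding genes Gm5087 by -4.01 ± 0.26 and Gm28175 by -3.46 ± 0.17. Cadps2, a priming factor of dense-core vesicles, differed by -4.16 ± 0.18; against Sst nuclei alone, chosen after the data had been seen, its difference was -0.33 and not called.

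Of the class markers outside the rule, 6 of 10 tested were higher and none was lower by edgeR, beside 6.21% higher and 7.86% lower of all genes. The list median was 1.46 beside -0.01 over all genes tested. Nos1 stood at 144 to 187 CPM over the 4 member sums and 35.8 to 55 CPM in the other GABA sums (log2 1.91 ± 0.12 SE), and Kit, a receptor tyrosine kinase, at 142 to 177 CPM over the 4 member sums and 49 to 59.5 CPM in the other GABA sums (log2 1.58 ± 0.09 SE). Id2 differed by 1.99 ± 0.18. Over 13 alternatives Nos1 ranged from 0.95 to 3.25 and Kit from 0.69 to 4.69, and both were called in each. Npy differed by 0.59 ± 0.14 (edgeR adjusted p = 0.00703), a call that was lost in 4 of 13 alternatives, among them without Control 1 (0.35, adjusted p = 0.194), and against Sst nuclei alone the difference was -0.24. Reln, at 353 to 1125 CPM over the 4 member sums and 417 to 514 CPM in the other GABA sums (log2 0.36 ± 0.17 SE), and Ndnf, at 35.9 to 103 CPM over the 4 member sums and 47.7 to 66.4 CPM in the other GABA sums (log2 -0.06 ± 0.22 SE), were not called. Reln is abundant in Sst interneurons, and against Sst nuclei alone its difference was -0.31.

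Lineage genes gave a mixed picture, beside 6.21% higher and 7.86% lower of all genes tested. Of the tested MGE genes, 3 of 6 were higher and 2 lower. Lhx6, the LIM homeobox gene of MGE interneurons, stood at 39.4 to 49.1 CPM over the 4 member sums and 23 to 28 CPM in the other GABA sums (log2 0.76 ± 0.14 SE), and Nxph1, a neurexin ligand of interneurons, at 3191 to 3716 CPM over the 4 member sums and 2235 to 2368 CPM in the other GABA sums (log2 0.58 ± 0.05 SE). Against Sst nuclei alone neither was called (0.38 for Lhx6, 0.14 for Nxph1), and with 0 UMIs of Sst, Vip and Slc17a7 Lhx6 was not called. Mef2c was the third gene that was higher (0.22 ± 0.07), while Satb1 and Sox6 (-2.68 ± 0.18), a transcription factor downstream of Lhx6, were lower. Of 8 CGE genes, 0 were called higher and 5 lower by edgeR. Adarb2, an RNA-binding protein that marks CGE interneurons, stood at 1990.1 to 2736 CPM over the 4 member sums and 4115 to 4836 CPM in the other GABA sums (log2 -0.95 ± 0.06 SE). Npas3, a helix-loop-helix transcription factor, differed by -2.76 ± 0.09. The other GABA nuclei hold both lineages, and against Sst nuclei alone Adarb2 was 3.89 higher on the log2 scale.

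Genes of GABA handling and reception differed in both directions, beside 6.21% higher and 7.86% lower of all genes tested. In the list of synthesis, transport and release, 4 of 10 tested genes were higher and 2 lower. Slc6a11, a GABA transporter, differed by 1.28 ± 0.17. Syt2, the calcium sensor of fast-releasing terminals, stood at 1.31 to 4.26 CPM over the 4 member sums and 24.9 to 41.1 CPM in the other GABA sums (log2 -3.54 ± 0.30 SE). Among 17 receptor and anchor genes 5 were higher and 2 lower. The GABA-B subunit Gabbr2 stood at 824 to 922 CPM over the 4 member sums and 353 to 409 CPM in the other GABA sums (log2 1.19 ± 0.06 SE). GABA-A subunits that were higher included Gabrg3 (1.31 ± 0.05) and Gabrb2 (1.03 ± 0.06), and those that were lower were Gabra3 (-0.80 ± 0.12) and Gabrb1 (-0.26 ± 0.08).

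Signalling lists were mixed too, beside 6.21% higher and 7.86% lower of all genes tested. In the list of nitric oxide and cGMP signalling Nos1 was the 1 gene of 10 that was higher, and 5 were lower: the adaptor Nos1ap (-0.59 ± 0.09), the phosphodiesterases Pde1a (-0.63 ± 0.13), Pde5a (-0.96 ± 0.16) and Pde9a (-0.95 ± 0.11), and the cGMP-dependent kinase Prkg2 (-1.89 ± 0.43). In the neuregulin list 3 of 5 were higher, among them the receptor Erbb4 (0.71 ± 0.05) and its ligand Nrg2 (0.96 ± 0.08), and Nrg3 was lower (-0.34 ± 0.05). The reelin pathway had 2 of 9 genes higher, the adaptor Dab1 (0.28 ± 0.07) and Rapgef1 (0.34 ± 0.11), and none lower by edgeR. In the Wnt list 3 of 26 were higher and 4 lower. The Wnt inhibitor Wif1 stood at 23.8 to 34.1 CPM over the 4 member sums and 8.11 to 9.17 CPM in the other GABA sums (log2 1.80 ± 0.20 SE), the ligand Wnt5b at 5.25 to 8.93 CPM over the 4 member sums and 52.6 to 64.1 CPM in the other GABA sums (log2 -2.98 ± 0.20 SE), and Rspo2, the R-spondin that amplifies Wnt signals and is named in the series title, at 4.46 to 12.6 CPM over the 4 member sums and 27.1 to 38.9 CPM in the other GABA sums (log2 -1.82 ± 0.22 SE). Kat6a itself was higher in members (0.42 ± 0.10), as was its paralog Kat6b (0.24 ± 0.07).

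Members were not uniform. Lhx6 and Adarb2, markers of the MGE and CGE lineages, were both seen in 58 of 190 members, Lhx6 alone in 19, Adarb2 alone in 92 and neither in 21. Excitatory nuclei held Lhx6 UMIs in 0.402 to 0.596% of cases and Adarb2 UMIs in 39.2 to 46.5%, so the Adarb2 share alone sets members apart less than its count per nucleus. Most members with Adarb2 carried at least 10 UMIs of it (34 and 29 in Control against 27 and 28 in Kat6a-cKO). Of the 40 members with Ndnf, 36 also held Reln. Of the 77 with Lhx6, 71 also held Nos1, and Nos1 UMIs were found in 24.6 to 28.9% of excitatory nuclei. Reln and Nos1 were seen together in 75 members and Reln and Npy in 35. Neither Reln nor Nos1 was seen in 26 members, and neither Reln nor Npy in 43. These markers therefore do not bear out the label in every member. These counts share the depth of each nucleus and are a description over nuclei of 4 libraries.

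**Figure D2:**
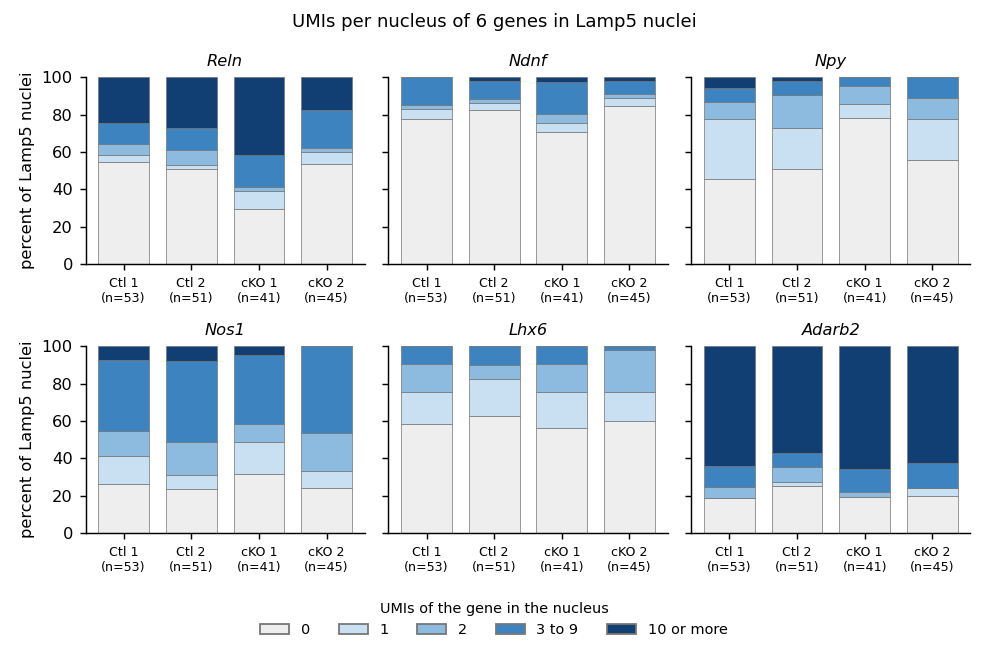
Percent of members by their UMI count of Reln, Ndnf, Npy, Nos1, Lhx6 and Adarb2, with 1 stacked bar for each library (Ctl, Control; cKO, Kat6a-cKO; n, members) and darker shades for more UMIs. Kat6a-cKO 1 had the fewest members without Reln, 12 of 41, and Adarb2 lay mostly at 0 or at 10 and more.

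Shares of members that keep a UMI after thinning to 5000 UMIs were compared over libraries. For Lhx6 they were 16.7% and 16.1% in Control against 20.4% and 17.7% in Kat6a-cKO (41.5% and 37.3% in Control against 43.9% and 40.0% in Kat6a-cKO without thinning), with an exact permutation p of 0.33. For Npy they were 24.3% and 22.7% in Control against 10.8% and 22.3% in Kat6a-cKO (exact permutation p = 0.33), with 54.7% and 49% in Control against 22% and 44.4% in Kat6a-cKO before thinning and 5.08 to 7.14% in excitatory nuclei. Kat6a-cKO 1 was the library that stood low for Npy and high for Reln. The exact permutation p was 0.667 for Reln, 1 for Ndnf and 0.667 for Nos1. With 2 libraries a group, 0.33 is the smallest p that these tests can give.

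Members were also divided by their Lhx6 count, which is no lineage call, since most members with Lhx6 also held Adarb2. Members with at least 2 Lhx6 UMIs (13 and 9 in Control against 10 and 11 in Kat6a-cKO) were set against members with none (31 and 32 in Control against 23 and 27 in Kat6a-cKO), leaving out those with 1. By edgeR with each library as a block, 28 of 4611 genes were higher and 58 lower in the Lhx6-positive nuclei (1.87% called, 0.607% higher and 1.26% lower). The number of calls moved with the library left out. It was 43 without Control 1, 42 without Control 2, 48 without Kat6a-cKO 1 and 191 without Kat6a-cKO 2. Lhx6 itself made the split and took no call. Median UMI counts were 20648 and 18879 in Control against 17688 and 17011 in Kat6a-cKO in the Lhx6-positive nuclei. In those with none they were 16825 and 16966.5 in Control against 15121 and 15704 in Kat6a-cKO. A nucleus without an Lhx6 UMI, called Lhx6-negative below, may still express the gene. The part of depth in this comparison was not tested.

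Genes lower in the Lhx6-positive nuclei had the larger differences. Ntng1, an axonal adhesion molecule of the netrin-G family, stood at 0 to 75 CPM in the Lhx6-positive sums and 221 to 1092 CPM in the Lhx6-negative sums (log2 -4.74 ± 0.55 SE). Car10, a carbonic anhydrase-related protein that binds neurexins, stood at 0 to 21.2 CPM in the Lhx6-positive sums and 138 to 291 CPM in the Lhx6-negative sums (log2 -4.80 ± 0.46 SE). Chrm2, a muscarinic acetylcholine receptor, stood at 0 to 60.2 CPM in the Lhx6-positive sums and 98.5 to 636 CPM in the Lhx6-negative sums (log2 -3.60 ± 0.31 SE). For all 3 genes the highest Lhx6-positive sum lay below the lowest Lhx6-negative sum. Chrm2 was found in only 7 and 10 Control members and 3 and 5 Kat6a-cKO members. Members without a Reln UMI held 98.8%, 98.2% and 98.7% of the Control counts of Chrm2, Ntng1 and Car10. In Kat6a-cKO they held 95.5%, 66.8% and 63.0%. These differences therefore do not describe all Lhx6-negative members alike. The cadherin Cdh18 (-3.99 ± 0.45), the copine Cpne4 (-3.79 ± 0.33), the heparan sulfate sulfotransferase Hs3st4 (-3.41 ± 0.34), the phosphodiesterase Pde1a (-3.54 ± 0.48), Npas3 (-3.08 ± 0.32), the netrin receptor Dcc (-2.99 ± 0.27) and Kctd8, an auxiliary subunit of GABA-B receptors (-2.75 ± 0.49), were lower too. Hs3st4 and Pde1a were no longer called when 1 Lhx6 UMI sufficed, Npas3 was not called with at least 3 Lamp5 UMIs, and Kctd8 was called in 7 of 11 alternatives and not without either Control library.

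Il1rapl2, a synaptic adhesion receptor of the interleukin receptor family, had the largest difference among the higher genes, at 245 to 333 CPM in the Lhx6-positive sums and 19.4 to 129.8 CPM in the Lhx6-negative sums (log2 2.45 ± 0.33 SE). Tenm1, a teneurin adhesion molecule, stood at 2216 to 3065 CPM in the Lhx6-positive sums and 1210.2 to 1598 CPM in the Lhx6-negative sums (log2 1.02 ± 0.14 SE), and Plxdc2 at 1076 to 1304 CPM in the Lhx6-positive sums and 506 to 680.0 CPM in the Lhx6-negative sums (log2 1.11 ± 0.14 SE). Tenm1 was not called with at least 3 Lamp5 UMIs (0.51, edgeR adjusted p = 0.353), nor Il1rapl2 with 0 UMIs of Sst, Vip and Slc17a7 (2.004, edgeR adjusted p = 0.185). Cntnap4, a neurexin-related protein of interneuron terminals, was higher by 0.74 ± 0.14, and so was its antisense neighbour Gm45904 (1.03 ± 0.18); the counting strand is not known, so reads of these partners cannot be told apart. The protease gene Pappa (1.40 ± 0.27), the transcriptional cofactor Eya4 (1.32 ± 0.23), Ano3 (1.25 ± 0.25), the Polycomb gene Pcgf5 (1.10 ± 0.24), the contactin Cntn4 (1.09 ± 0.25) and Rgs6, a regulator of G-protein signals (1.08 ± 0.17), were higher as well. These last 6 genes and Gm45904 each lost their call without at least 1 of Control 1, Control 2 and Kat6a-cKO 1, with all differences still positive, and were called in 5 (Pcgf5) to 10 (Eya4) of 12 alternatives.

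**Figure D3:**
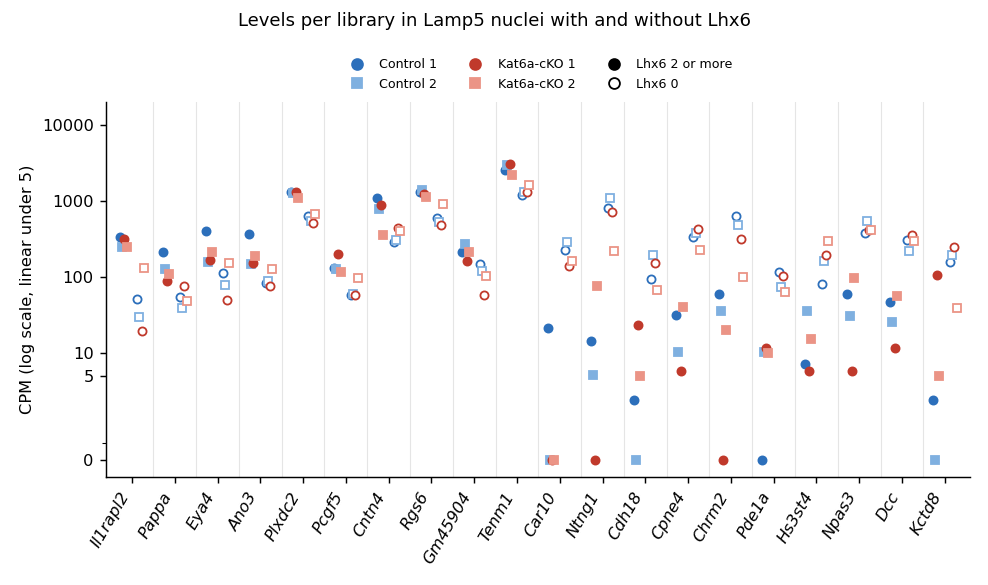
Levels in CPM (log axis, linear under 5) of the 20 named genes in members with at least 2 Lhx6 UMIs (filled) and with none (open), with 1 point for each library sum. Il1rapl2 stood higher in the Lhx6-positive sums of all 4 libraries, and Car10, Ntng1 and Chrm2 lower in them.

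Among class markers 2 of 8 tested were lower in Lhx6-positive nuclei and 0 higher, beside 1.26% lower and 0.607% higher of all genes tested. Kit stood at 5.0 to 143 CPM in the Lhx6-positive sums and 202 to 302 CPM in the Lhx6-negative sums (log2 -2.71 ± 0.52 SE), with Control 2 as the Lhx6-positive library of highest level, and Sv2c differed by -0.94 ± 0.19. Reln (-0.73 ± 0.20, edgeR adjusted p = 0.0891), Ndnf (-1.87 ± 0.46, adjusted p = 0.0543), Nos1 (0.36 ± 0.16, adjusted p = 0.416) and Adarb2 (-0.64 ± 0.16, adjusted p = 0.0652) were not called. Cnr1 was lower (-2.28 ± 0.27), and so was neurexin Nrxn3 (-1.17 ± 0.14), while Lrrtm4, a postsynaptic neurexin ligand, was higher (0.71 ± 0.11).

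The comparison of genotypes began with Kat6a. In members it stood at 85.3 and 102 CPM in Control against 86.3 and 89.2 CPM in Kat6a-cKO, with a log2 fold change of -0.08 ± 0.19 SE (Kat6a-cKO over Control, edgeR adjusted p = 0.987), and its groups overlapped. UMIs along the gene body cannot show whether the loxP-flanked part was present, so this level does not test recombination. The cre entry of the count table had no count in any member sum, which allows up to 4.46 CPM in Kat6a-cKO 1 and 3.94 CPM in Kat6a-cKO 2 (3 counts of the sum). Neurod6, the locus that holds the Cre, gave 6, 9, 2 and 5 counts in Control 1, Control 2, Kat6a-cKO 1 and Kat6a-cKO 2. Rspo2 was too low to be tested, at 12.6 and 7.46 CPM in Control against 4.46 and 10.5 CPM in Kat6a-cKO.

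Few genes differed between genotypes in members. Of 7896 genes tested by edgeR, 2 were higher in Kat6a-cKO (Hs6st3 and Ryr3) and 4 were lower (Rmst, Gpc5, Gm32647 and Meis2), which is 0.076% of those tested (0.0253% higher, 0.0507% lower). At an unadjusted p under 0.05 there were 378 (4.79%), and groups that did not overlap were found for 33.9% of all genes. DESeq2 called 3 of the 6, Rmst, Hs6st3 and Gpc5. With each library left out in turn, all 6 genes kept their direction. Each of these 4 fits leaves 1 library in a group and cannot measure the spread within it, so their calls are not given. With members restricted to 0 UMIs of Sst, Vip and Slc17a7 the count of calls was 0, with 293 at an unadjusted p under 0.05.

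Rmst had the largest called difference. It is a long non-coding RNA gene known from neural development (chr10:92071037-92165170, minus strand in GRCm38, GENCODE M21, with 11 overlapping genes, among them Mir135a-2). Its level was 72.7 and 63.9 CPM in Control against 5.95 and 3.94 CPM in Kat6a-cKO, a log2 fold change of -3.76 ± 0.38 SE (edgeR adjusted p = 0.000888). The groups lie far apart, but the counts come from few nuclei, 11 and 6 Control nuclei and 3 and 2 Kat6a-cKO nuclei. The nucleus of highest count gave 33.3% of the counts in each Control library, and without it the levels were 49.9 and 44 CPM, still above both Kat6a-cKO sums. In the other GABA nuclei Rmst stood at 8.89 and 10.4 CPM in Control against 14.3 and 10.7 CPM in Kat6a-cKO. With 0 UMIs of Sst, Vip and Slc17a7 the difference was -3.19 and not called (adjusted p = 0.49).

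Hs6st3 and Gpc5, which both bear on heparan sulfate, the sugar chain of cell-surface proteoglycans, differed in opposite directions. Hs6st3 encodes a sulfotransferase that modifies the chain (chr14:119138341-119869815, plus strand). Its level was 248 and 205 CPM in Control against 629 and 548 CPM in Kat6a-cKO (log2 1.39 ± 0.16 SE, edgeR adjusted p = 0.00284), from 19 and 22 Control nuclei and 13 and 21 Kat6a-cKO nuclei. Excitatory nuclei held Hs6st3 at 2644 to 2806 CPM, and without the members called as doublets, 0 in Control and 5 in Kat6a-cKO, the difference was 1.08 (adjusted p = 0.217). It was 2.89 with at least 3 Lamp5 UMIs (edgeR adjusted p = 2.4e-07) and 1.87 and not called with 0 UMIs of Sst, Vip and Slc17a7 (edgeR adjusted p = 0.797). Gpc5 encodes a glypican, a proteoglycan that carries such chains (chr14:115092215-116525179, plus strand). Its level was 111 and 176 CPM in Control against 35.7 and 40.7 CPM in Kat6a-cKO (log2 -1.88 ± 0.25 SE, edgeR adjusted p = 0.00907), from 24 and 19 Control nuclei and 15 and 17 Kat6a-cKO nuclei. The nucleus of highest count gave 42.6% of the Gpc5 counts of Control 1 and 41.2% of those of Control 2. Without it the Control levels were 65.6 and 106.8 CPM, still above both Kat6a-cKO sums. The Gpc5 difference was -1.04 and not called with at least 3 Lamp5 UMIs, and -0.46 with 0 UMIs of Sst, Vip and Slc17a7. The direction of both genes was the same under every alternative run.

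Ryr3, a ryanodine receptor that releases calcium from the endoplasmic reticulum (chr2:112631355-113217096, minus strand, overlapping Aven), stood at 55.3 and 39.4 CPM in Control against 106 and 140.4 CPM in Kat6a-cKO (log2 1.38 ± 0.23 SE, edgeR adjusted p = 0.0483). It was found in 14 and 16 Control nuclei and 22 and 15 Kat6a-cKO nuclei, and excitatory nuclei held 1249.6 to 1365 CPM. The nucleus of highest count gave 36.6% of the Ryr3 counts of Kat6a-cKO 1 and 42.1% of those of Kat6a-cKO 2. Without that nucleus Ryr3 stood at 69.3 and 85.8 CPM in Kat6a-cKO, still above both Control sums. Without the called doublets its difference was 0.18 (adjusted p = 0.993). Gm32647, a long non-coding gene (chr7:94042691-94709171, plus strand), stood at 66.9 and 53.3 CPM in Control against 5.95 and 15.7 CPM in Kat6a-cKO (log2 -2.41 ± 0.37 SE, edgeR adjusted p = 0.0265), from 7 and 9 Control nuclei and 2 and 9 Kat6a-cKO nuclei. Meis2, a homeobox transcription factor (chr2:115863064-116065839, minus strand), stood at 56.2 and 44.7 CPM in Control against 11.9 and 13.1 CPM in Kat6a-cKO (log2 -1.99 ± 0.33 SE, edgeR adjusted p = 0.0483). Its counts came from 5 and 7 Control nuclei and 6 and 3 Kat6a-cKO nuclei, and 1 nucleus gave 60.3% of those of Control 1 and 1 gave 47.6% of those of Control 2. Without these nuclei the Control levels of Meis2 were 22.9 and 24 CPM. Rmst and Meis2 were seen together in 4 and 5 Control nuclei and 2 and 0 Kat6a-cKO nuclei. Rmst and Gm32647 were seen together in 4 and 4 Control nuclei and 0 and 0 Kat6a-cKO nuclei, and Rmst and Chrm2 in 4 and 5 against 2 and 1. The counts of these genes thus came in part from the same few nuclei. DESeq2 called none of Ryr3, Gm32647 and Meis2 at an adjusted p under 0.05. None of the 3 was called by edgeR with at least 3 Lamp5 UMIs (0.85, -1.95 and -2.25) or with at least 10000 UMIs (1.42, -2.37 and -2.03). With 0 UMIs of Sst, Vip and Slc17a7 Ryr3 (0.88) and Gm32647 (-2.40) were not called, and Meis2 did not pass the filter. Without doublets Meis2 was not called either (-2.54, edgeR adjusted p = 0.0669).

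**Figure D4:**
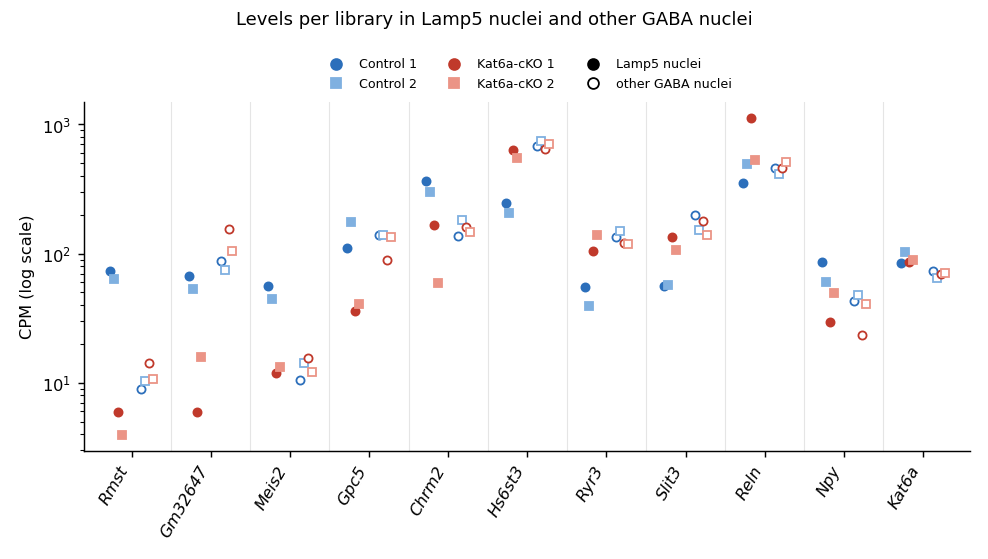
Levels in CPM (log axis) of genes called between genotypes or in the interaction, and of Reln, Npy and Kat6a, with 1 point for each library sum in members (filled) and other GABA nuclei (open). Rmst, Gm32647, Meis2 and Gpc5 lay lower and Hs6st3 and Ryr3 higher in both Kat6a-cKO sums of members, while Rmst did not lie lower in Kat6a-cKO in the other GABA nuclei and Kat6a overlapped.

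The genes next in order of p were not called. Gm3510 stood at 18.4 and 21.3 CPM in Control against 55 and 57.7 CPM in Kat6a-cKO (log2 1.52 ± 0.28 SE, edgeR adjusted p = 0.0961), and Slit3, a secreted guidance cue, at 56.2 and 57.5 CPM in Control against 135 and 108 CPM in Kat6a-cKO (log2 1.10 ± 0.21 SE, edgeR adjusted p = 0.115). March1, a ubiquitin ligase, stood at 60.1 and 81 CPM in Control against 126 and 148 CPM in Kat6a-cKO (log2 0.98 ± 0.20 SE, edgeR adjusted p = 0.184). Without doublets the difference was 0.16 for Slit3 and 0.25 for March1. Chrm2 stood at 364 and 300.4 CPM in Control against 167 and 59 CPM in Kat6a-cKO (log2 -1.56 ± 0.31 SE, edgeR adjusted p = 0.166), with Kat6a-cKO 2 the lowest, and its counts came from 7 and 10 Control nuclei and 3 and 5 Kat6a-cKO nuclei. Among the alternatives that kept all 4 libraries, Chrm2 was called without the filter on low counts (-1.57) and with the replicate number as a block (-1.64, edgeR adjusted p = 0.00321). Its values ranged from -2.50 without Kat6a-cKO 1 to -0.95 without Kat6a-cKO 2.

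No gene of any list was called between genotypes by edgeR. The lists held 165 distinct tested genes, of which 23 had an unadjusted p under 0.05 by edgeR, beside 378 of all 7896 genes tested (4.79%). By DESeq2 it was 6 of them, beside 72 of all 7896 genes, and DESeq2 called 0. The lists include 4 genes chosen because they differed between genotypes over all inhibitory nuclei of these libraries. Of these 4, 3 had an unadjusted edgeR p under 0.05, so nothing is read from these shares. Reln had a log2 difference of 0.98 ± 0.27 SE (edgeR adjusted p = 0.515), Npy -0.86 ± 0.28 (adjusted p = 0.797) and Ndnf 0.73 ± 0.37 (adjusted p = 0.982). The Reln difference was 0.32 without Kat6a-cKO 1 and 1.46 without Kat6a-cKO 2, and that of the thinned share of members with Reln was 0.77 and 20.5 percentage points. Among the alternatives that kept all 4 libraries, Reln was called with at least 3 Lamp5 UMIs (1.21, edgeR adjusted p = 0.0327) and without the filter on low counts (0.97). In the others of these it was not called, and Npy was called in none. The Npy difference was -1.10 without Control 2 and -1.26 without Kat6a-cKO 2. A fit that leaves 1 library in a group cannot measure the spread within that group, so its calls are not given. In the Wnt and R-spondin list 9 of 17 tested genes were on the positive side, with a median of 0.01 beside -0.01 over all genes. The GABA receptor list had 8 of 16 positive and a median of -0.0036. Genes of the Kat6a complex had 4 of 6 positive and a median of 0.05.

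A few lists lay to one side of 0 without a called gene. Of 13 tested genes of neurexins and synaptic partners, 11 were negative, with a median of -0.12 beside -0.01 over all genes. All 6 tested genes of the mitochondrial genome had negative values, with a median of -0.75, and 3 had an unadjusted p under 0.05, beside 4.79% of all genes tested. The mitochondrial share of member counts was 0.0866% and 0.0764% in Control against 0.0725% and 0.0481% in Kat6a-cKO, a measure of cytoplasmic RNA left on nuclei. In the other GABA nuclei it was 0.0887% and 0.0788% in Control against 0.0673% and 0.0502% in Kat6a-cKO, and the median of the interaction over the 11 mitochondrial genes tested there was -0.022, with 5 positive and 6 negative. Nuclear genes of oxidative phosphorylation had 11 of 15 negative and a median of -0.41, with an interaction median of 0.13. The part of that cytoplasmic RNA in these values was not tested. Actb, Rpl34, mt-Cytb and Fth1, chosen because they differed between genotypes over all inhibitory nuclei of these libraries, had log2 differences of -0.46, -0.65, -0.67 and -0.52 and are no independent evidence. The 3 immediate early genes tested, of 19 listed, had positive values with a median of 0.95, none called by edgeR or DESeq2 and 2 with an unadjusted edgeR p under 0.05. In the interaction, 13 of 14 immediate early genes tested were positive, with a median of 1.39 beside -0.0055 over all genes. Of these genes 7 had an unadjusted edgeR p under 0.05, beside 617 of all 13564 genes tested, and 0 were called. Only 3 immediate early genes passed the filter on low counts in members alone. The others entered the interaction through the deeper sums of the other GABA nuclei and rest on low member counts. Nothing is read from these interaction values. All 5 tested neuropeptide and receptor genes, of 26 listed, were negative, with a median of -0.39. In the interaction 9 of 18 such genes were positive and 9 negative, with a median of -0.0144. For these and the mitochondrial genes the interaction also tested more genes than passed the filter in members alone. Part of those values thus rests on low member counts.

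The makeup of members moved with the library. Members without a Reln UMI numbered 29 and 26 in Control against 12 and 24 in Kat6a-cKO, and those with at least 2 numbered 22 and 24 in Control against 25 and 18 in Kat6a-cKO. This division was made after the data had been seen and is given without a test. In Control, members without Reln held 84.4% of the Rmst counts (114 of 135), 96% of those of Meis2, 82.4% of those of Gm32647 and 68.2% of those of Gpc5. Members with at least 2 Reln UMIs held 73% of the Hs6st3 counts. Of all Control counts, members without Reln held 566247 of 1031605 in Control 1 and 492400 of 938814 in Control 2, and of the shares of the 4 lower genes that of Gpc5 lay nearest to these. In Kat6a-cKO members without Reln held 8 of the 16 Gm32647 counts.

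Within members without Reln, Rmst stood at 95.4 and 122 CPM in Control against 9.95 and 6.86 CPM in Kat6a-cKO, Meis2 at 95.4 and 85.3 CPM in Control against 24.9 and 22.9 CPM in Kat6a-cKO and Gpc5 at 65.3 and 313 CPM in Control against 54.7 and 50.3 CPM in Kat6a-cKO. Over both Kat6a-cKO libraries those members held 5 Rmst counts and 15 Meis2 counts. In these sums 3 counts equal 14.9 CPM in Kat6a-cKO 1 and 6.86 CPM in Kat6a-cKO 2, so the Rmst levels lie at or below that floor. Within members with at least 2 Reln UMIs, Hs6st3 stood at 488 and 275 CPM in Control against 870.3 and 809 CPM in Kat6a-cKO. For Gpc5 Control 1 stood near both Kat6a-cKO sums and Control 2 alone stood apart. Chrm2 stood at 662 and 556 CPM in Control against 522 and 103 CPM in Kat6a-cKO in members without Reln, where Kat6a-cKO 2 alone was far lower. Ntng1 stood at 805 and 1267 CPM in Control against 736 and 224 CPM in Kat6a-cKO there, and Kit at 185 and 261 CPM in Control against 284 and 366 CPM in Kat6a-cKO in members with at least 2 Reln UMIs. The part of the members' makeup in the differences over all members was not tested.

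**Figure D5:**
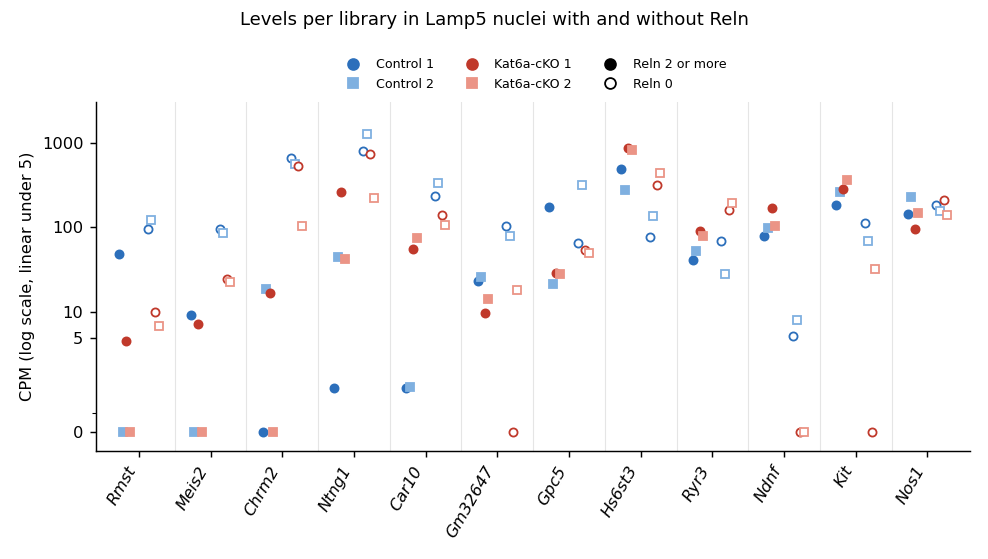
Levels in CPM (log axis, linear under 5) of 12 genes in members with at least 2 Reln UMIs (filled) and without any (open), with 1 point for each library sum. Among members without Reln, Rmst and Meis2 lay higher in both Control sums, where the Kat6a-cKO points rest on 5 Rmst and 15 Meis2 counts. Among members with it Hs6st3 lay higher in both Kat6a-cKO sums.

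Whether the genotype difference of members differed from that of the other GABA nuclei was tested with edgeR by a class-by-genotype interaction, keeping each library as a block. The test called 7 of 13564 genes (0.0516%), 3 with a more positive difference in members (0.0221%) and 4 with a more negative one (0.0295%). They were Rmst, Gm32647, Gpc5 and Chrm2 on the negative side and Hs6st3, Ryr3 and Slit3 on the positive side, so 5 of the 6 genes called within members were among them. The interaction rests on the same member sums as the comparison within members, so this overlap is no independent evidence. Gm32647 stood at 66.9 and 53.3 CPM in Control against 5.95 and 15.7 CPM in Kat6a-cKO in members and 88 and 74.2 CPM in Control against 156 and 104 CPM in Kat6a-cKO in the other GABA nuclei. In the other GABA nuclei its Kat6a-cKO sums were the higher ones. The interaction of Rmst was -4.15 ± 0.45 SE (adjusted p = 0.000136) and that of Gm32647 -3.07 ± 0.36 (adjusted p = 0.000165). Hs6st3 stood at 683 and 740.3 CPM in Control against 642 and 712 CPM in Kat6a-cKO in the other GABA nuclei, without the separation of groups seen in members (interaction 1.46 ± 0.17, edgeR adjusted p = 0.000146). With each library left out in turn, all 7 genes kept their direction. Each of these fits leaves 1 library in a group, so their calls are not given.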

How the data were processed

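Nuclei of the hippocampus of 2 Control and 2 Kat6a-cKO libraries were profiled by droplet single-nucleus RNA sequencing. The authors deposited whole-number UMI counts for each gene and barcode, empty droplets included, without normalization, which was checked on the files. Per the submitters' processing notes, mm10 and Seurat 4.0.1 were used; the aligner and the counting strand are not given in the sources used here. Of 55422 gene IDs, 55154 had a symbol. Barcodes of at least 5000 UMIs were taken as nuclei and members were chosen by the rule given above. Doublets were called per library by Scrublet (scanpy 1.11.5, expected rate 0.06, 3.05 to 3.77% of nuclei) and kept, and leaving them out was an alternative.

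Counts were summed per library and class and tested by the quasi-likelihood test of edgeR 4.0.16 in R 4.3.3, with TMM, filterByExpr and a Benjamini-Hochberg adjusted p under 0.05, over all genes that passed the filter. CPM values are without TMM. DESeq2 1.42.0, other filters, other thresholds of the rule and leaving out each library were alternatives. Shares were compared by exact permutation tests over libraries (scipy 1.17.1), and thinned shares are the exact expected share of nuclei that keep at least 1 UMI at 5000 UMIs. The fits were also run on simulated sums with planted changes. These sums did not copy the uneven spread of counts over nuclei, so they do not test calls that rest on few nuclei. Members and lists were chosen with earlier results of these data known. Genes were named by rule. For genotypes these were the called genes, then up to 5 of smallest p in each direction. For the class they were the 15 higher and 10 lower of largest difference with at least 50 CPM, for the Lhx6 comparison 10 in each direction, and for the interaction up to 5. Genes of the lists were added, with the most abundant as examples, and some were singled out after their values were seen (Cntnap4, Nrxn3, Lrrtm4, Cnr1, Ntng1 and Kit in subsets of members, and Wnt5b and Wif1). Where leaving out a library left 1 in a group, the lone library is assumed to vary like the others. Some genes of the lists are counted but their values are not reported here.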

Additional observations from a re-analysis of the deposited data

Results flagged for a closer look

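For 7 genes the genotype difference in members differed from that in the other GABA nuclei by the edgeR interaction test, with log2 values for members minus other GABA nuclei. Rmst had -4.15 ± 0.45 SE (adjusted p = 0.000136), Gm32647 -3.07 ± 0.36 (adjusted p = 0.000165) and Hs6st3 1.46 ± 0.17 (adjusted p = 0.000146), and their levels are given above. Ryr3 had 1.62 ± 0.24 (adjusted p = 0.00295), with 134 and 149.6 CPM in Control against 121 and 119 CPM in Kat6a-cKO in the other GABA nuclei, where both Kat6a-cKO sums lay below both Control sums. The Ryr3 interaction was not called without doublets (0.55), with at least 3 Lamp5 UMIs (0.98) or with 0 UMIs of Sst, Vip and Slc17a7 (0.99). Gpc5 had -1.57 ± 0.26 (adjusted p = 0.0105), with 139 and 138 CPM in Control against 88.5 and 135 CPM in Kat6a-cKO in the other GABA nuclei. For Gpc5 Kat6a-cKO 1 was the lowest there as well, while Kat6a-cKO 2 stood near Control. The Gpc5 interaction was not called with at least 3 Lamp5 UMIs (-0.77), with 0 UMIs of the excluded genes (-0.14), by DESeq2 (adjusted p = 0.107) or with at least 10 CPM in 2 sums (adjusted p = 0.0722), and that of Hs6st3 was 2.88 with at least 3 Lamp5 UMIs and 1.72 and not called with 0 UMIs of the excluded genes.

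Slit3 had an interaction of 1.25 ± 0.20 (edgeR adjusted p = 0.0105) although it was not called within members. It stood at 56.2 and 57.5 CPM in Control against 135 and 108 CPM in Kat6a-cKO in members. In the other GABA nuclei it stood at 199 and 152 CPM in Control against 178 and 140.0 CPM in Kat6a-cKO. Without Control 1 the interaction was 1.01. The Slit3 interaction was not called with at least 3 Lamp5 UMIs (0.0642), with 0 UMIs of the excluded genes (0.16), without doublets (0.37) or by DESeq2 (adjusted p = 0.278). Chrm2 had -1.57 ± 0.28 (edgeR adjusted p = 0.0281), with 364 and 300.4 CPM in Control against 167 and 59 CPM in Kat6a-cKO in members and 138 and 183 CPM in Control against 162 and 147 CPM in Kat6a-cKO in the other GABA nuclei. The Chrm2 interaction ranged from -2.41 without Kat6a-cKO 1 to -1.004 without Kat6a-cKO 2 and was not called by DESeq2, with at least 10 CPM in 2 sums (adjusted p = 0.230) or with 0 UMIs of the excluded genes (-1.25). Rmst and Gm32647 were called in the interaction under each alternative run that kept all 4 libraries.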

How the results depend on the processing

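The count of genes called between genotypes in members, 6, was 3 by DESeq2, 38 without the filter on low counts, 6 with at least 3 Lamp5 UMIs, of which 2 were among the 6, 0 with 0 UMIs of Sst, Vip and Slc17a7, 3 with at least 10000 UMIs and 3 without called doublets, and 18 to 47 with a library left out. The count for the Lhx6 comparison, 86, was 213 without the filter, 162 with at least 10 CPM in 2 sums, 21 with at least 3 Lamp5 UMIs, 34 with 0 UMIs of the excluded genes, 144 without doublets and 42 to 191 with a library left out. The interaction count, 7, was 4 by DESeq2, 44 without the filter, 34 with at least 3 Lamp5 UMIs, 3 with 0 UMIs of the excluded genes, 19 with at least 10000 UMIs, 13 without doublets and 25 to 44 with a library left out. The cause of these moves was not tested. The count against other GABA nuclei stayed within 1.5 times under every alternative run, though not always with the same genes. Against Sst nuclei alone, 1604 of the main calls were still tested, of which 1383 were called and 1540 kept their direction. Against Vip nuclei alone, 1339 were still tested, of which 840 were called and 1147 kept their direction. Genotype differences of shares also moved by over 1.5 times. That of members among GABA nuclei, -2.75 percentage points, was -1.53 with at least 3 Lamp5 UMIs, where the groups overlapped. That among all nuclei, -0.11, ranged from -0.18 with at least 10000 UMIs to -0.0724 without Kat6a-cKO 1. The thinned share of members with at least 1 Lhx6 UMI, 2.65, ranged from 1.28 without Kat6a-cKO 1 to 4.28 with at least 3 Lamp5 UMIs. The share with Npy, -6.98, ranged from -18.7 without thinning to -1.21 without Kat6a-cKO 1, that with Reln, 10.6, from 0.77 without Kat6a-cKO 1 to 20.5 without Kat6a-cKO 2, and the share of GABA nuclei among all nuclei, 0.99, from 0.65 without Kat6a-cKO 1 to 1.32 without Kat6a-cKO 2.

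Signs turned for some single values. Between genotypes these were Slit3 with at least 3 Lamp5 UMIs (-0.0431), and Kat6a with 0 UMIs of the excluded genes (0.0611) and from libraries left out in turn (-0.19 to 0.0409). Against other GABA nuclei Ndnf ranged from -0.54 to 0.13 over libraries left out. Against Sst nuclei alone, an alternative chosen after seeing the data, the differences, of which those of Npy and Adarb2 had been called against all other GABA nuclei, were 1.68 for Ndnf, -0.31 for Reln, -0.24 for Npy and 3.89 for Adarb2, and against Vip nuclei alone 1.90 for Ndnf. Over libraries left out, the genotype difference of the share of members with Ndnf ranged from -2.01 to 8.64 percentage points and that with Nos1 from -5.72 to 0.242. With 41 to 53 nuclei a library, genes seen in few members rest on few nuclei.

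With the replicate number as a block, 7 genes were called between genotypes (2 higher, 5 lower), among them Chrm2. Nothing in the labels pairs libraries by number, and the deviations of replicate 1 in the 2 groups had a correlation of 0.0128 over genes.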

Other observations

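Ion channel and synaptic adhesion genes were compared between members and other GABA nuclei, where 14.1% of all genes tested were called. Of 21 potassium and HCN channel genes, 5 were higher and 5 lower by edgeR (median -0.04). Kcnh7, an ERG potassium channel, stood at 1377 to 1928 CPM over the 4 member sums and 639 to 846 CPM in the other GABA sums (log2 1.20 ± 0.06 SE), and Kcnc2, a channel of fast-spiking interneurons, at 584 to 796 CPM over the 4 member sums and 2411 to 2685 CPM in the other GABA sums (log2 -1.84 ± 0.07 SE). Of 15 neurexin and partner genes, 5 were higher and 4 lower. Nrxn3, a presynaptic neurexin, stood at 2859 to 4111 CPM over the 4 member sums and 11475 to 12085 CPM in the other GABA sums (log2 -1.67 ± 0.06 SE). Of 15 neuropeptide and receptor genes 2 were higher, Npy and the opioid receptor Oprm1 (0.76 ± 0.10), and 7 were lower, among them a second opioid receptor, Oprd1, at 5.25 to 16 CPM over the 4 member sums and 35.9 to 41.6 CPM in the other GABA sums (log2 -1.82 ± 0.21 SE). None of the 21 channel, 13 neurexin or 5 neuropeptide genes tested between genotypes in members was called by edgeR or DESeq2, and 2, 1 and 1 had an unadjusted edgeR p under 0.05, beside 4.79% of all genes tested.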
